A study of Homo sapiens with 6 samples.

Results

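The short arm of chromosome 5, which carries TERT, held 478 of the 27801 places at which MYC peaks were called in ONS76 cells. A place is a stretch of the genome (hg19) covered by peaks of 1 or more of the 3 MYC libraries, with peaks joined where they overlapped by at least 1 bp. Places were assigned to the short arm when the peak summit, the base with the most enrichment, was below position 46400000. The arm was split at 20 Mb into a first part, from the chromosome end to 20 Mb, with 315 places, and the rest of the arm, from 20 to 46.4 Mb, with 163 places. The long arm of chromosome 5, with 1222 places, served for comparison. The boundary at 20 Mb was chosen with an earlier view of the background along the chromosomes in these lists, so the level of the background in the first part is given as a description.

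ONS76 is a human medulloblastoma cell line, here engineered to carry inducible SOX2, and all libraries came from this line. MYC-bound DNA was isolated with the Y69 antibody (n = 3), and libraries with normal IgG (n = 3) were made beside them but no files of their own were analysed here. Peaks were called in each MYC library by itself. Several precipitations from the same chromatin batch were combined, and whether the 3 replicates are separate cultures is not stated, so the spread between replicates may be technical.

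MYC is a transcription factor that pairs with MAX and binds the E-box, whose best known form is CACGTG, mostly in promoters of active genes. TERT encodes the catalytic protein subunit of telomerase, which extends chromosome ends with its RNA template and is active in most tumors but silent in most adult tissues. The TERT promoter contains E-boxes and is a classical target of MYC. The gene lies near the end of the short arm and is read towards that end, so positions above its start lie upstream of it.

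The promoter sequence is shown because a MYC place called in every replicate lay over the TERT start. It covers 250 bases before the start and 50 bases from the start onwards in RefSeq (GRCh38.p14, chr5:1295019-1295318, minus strand), with CACGTG in capitals.

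TERT promoter: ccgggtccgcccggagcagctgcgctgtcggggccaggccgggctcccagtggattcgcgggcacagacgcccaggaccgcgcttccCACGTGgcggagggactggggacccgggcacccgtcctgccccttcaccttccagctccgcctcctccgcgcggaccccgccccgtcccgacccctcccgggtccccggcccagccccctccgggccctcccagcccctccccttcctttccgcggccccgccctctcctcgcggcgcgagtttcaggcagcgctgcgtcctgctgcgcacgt

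Within this window CACGTG, which reads the same on both strands, occurred once, from 163 to 158 bases before the RefSeq start. The window ends in cacgt, so a CACGTG that runs past its edge would not be counted. Bases beyond the window were not searched. CACGTG occurred in 2548 of the 35116 RefSeq promoters of this length (7.26%), and 77.3% of the TERT window was G or C. The peak positions are in hg19 and the sequence is in hg38, and TERT was matched by its symbol, so the place of the E-box within the peak was not measured. The start used below for distances is position 1295162 in hg19 and need not be the same base as the RefSeq start.

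The place over TERT, joined from peaks of all 3 replicates, ran from 1294825 to 1295702 on chromosome 5 (hg19) and contained the start. Its summits were 169, 226 and 195 bp upstream of the start in replicates 1, 2 and 3. At the summit 102, 62 and 50 fragments were piled up, with a fold enrichment of 7.29, 5.85 and 5.87, a mean of 6.34 ± 0.824 (SD, n = 3). Fold enrichment is the number of fragments at the summit over the number that the control and the genome-wide average predict there, with 1 added to both, and the fragments and that local background were recovered from the fold and the p-value of each peak. The genome-wide level, the background under an even spread of fragments, was 7.79, 5.84 and 4.76 fragments in the 3 lists and ranks their depth, since no read totals are given. Replicate 1 was the deepest and replicate 3 the shallowest.

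By fold enrichment the TERT place stood above 92.0%, 84.0% and 82.2% of the places of the first part called in replicates 1, 2 and 3. Each place was taken at its strongest peak in that replicate. Among the places of the whole genome the TERT place stood above 83.5%, 71.4% and 66.5%. By fragments over the genome-wide level it stood above 91.2%, 86.3% and 81.7% of them. Its rank was thus higher on that scale, which leaves out the local background. Among the 12499 places called in all 3 replicates it ranked 4485 by geometric mean fold.

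Relative background relates the local background at a peak to the genome-wide level of that replicate's list, so 1 is the floor and larger values mean more control signal than average. At TERT it was 1.69, 1.67 and 1.62, a mean of 1.66 ± 0.0370 (SD, n = 3). It was set by the 10000 bp window around the summit, which held 756, 694 and 607 control tags (mapped control reads, as counted by the peak caller). The control signal was therefore raised over a stretch of 10000 bp and not at the promoter alone. Of the places in the first part, taken at their strongest peak, 3.80%, 17.2% and 5.92% had a lower background than TERT. This placed TERT near the low end of its neighbourhood.

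Within 100 kb of the TERT start there were 19 places, of which 6 were found in all 3 replicates, 10 in at least 2 and 9 in 1. TERT had the second highest fold in this stretch in each replicate. The highest was at a place from 1330277 to 1331100, 35596 bp upstream, with folds of 11.9, 7.99 and 8.09 on 192, 79 and 83 fragments. The 2 places nearest to the TERT summit lay on the gene side of the start, at -6174 and -8936 bp, and were called in replicate 1 alone with folds of 2.29 and 2.32. Further along on that side a place from 1282306 to 1282700 was called in all 3 replicates, with folds of 5.30, 3.0 and 5.0. On the upstream side a place from 1344427 to 1345509 had folds of 4.38, 5.39 and 4.98. These folds overlapped, so the order of these last 2 places was not resolved. The relative background of the peaks in this stretch ran from 1.5 to 2.56 in replicate 1, from 1.54 to 2.31 in replicate 2 and from 1.62 to 2.29 in replicate 3, and thus none of them was near the genome-wide level.

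**Figure D1:**
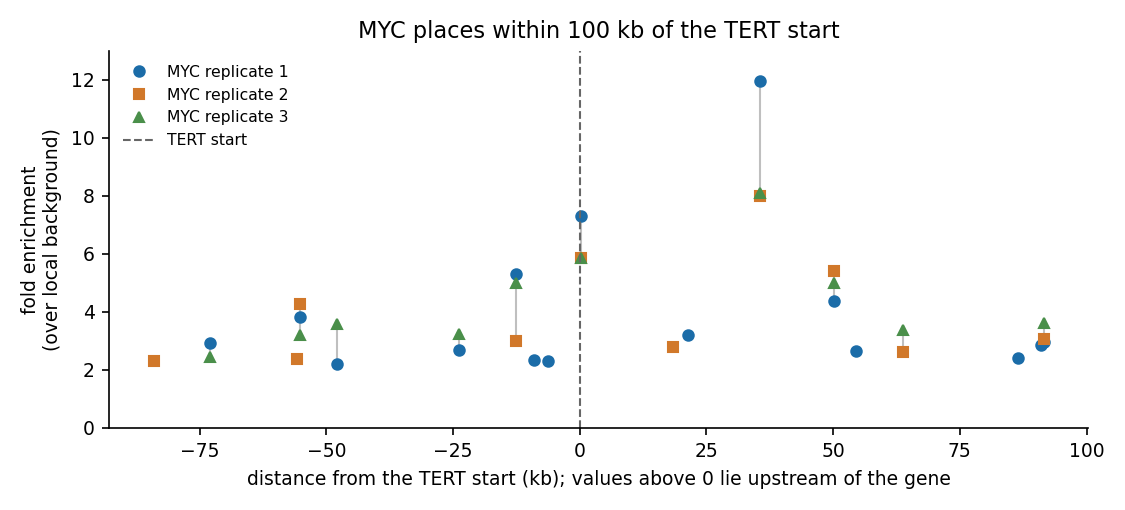
Fold enrichment (vertical axis, linear) of the 19 MYC places within 100 kb of the TERT start by distance in kb (horizontal axis), with 1 point for each replicate that called the place and a grey line joining the replicates. The TERT place at 0 has folds of 7.29, 5.85 and 5.87, and the only place above it in each replicate is the one 35596 bp upstream.

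The background over TERT belonged to a raised level that extended over the whole first part of the arm. The median relative background of the peaks in the first part was 2.0, 1.83 and 1.86 in replicates 1, 2 and 3. In the rest of the arm it was 1.15, 1.04 and 1.04, and on the long arm 1.18, 1.05 and 1.06. The ratio of the first part to the rest of the arm was 1.74, 1.77 and 1.78, a mean of 1.76 ± 0.0193 (SD, n = 3), and to the long arm 1.73 ± 0.0269 (SD, n = 3). The first part was higher in 3 of 3 replicates. The boundary was chosen with an earlier view of these backgrounds, so this direction and these ratios are a description. Which control each list was called against is not stated. At the genome-wide level the control held 448, 415 and 375 tags per 10000 bp in the 3 lists, so its size was not the same in each. Whether the controls are independent of each other is not stated, so the SD and n of a background ratio may not reflect independent controls. The rest of the arm was close to the long arm, with a ratio of 0.982 ± 0.00520 (SD, n = 3), lower in 3 of 3 replicates. With 3 replicates the exact two-sided sign-flip permutation test cannot give a p below 0.25, which was its value in each of the 12 ratios between parts that were computed, so none of them could pass a threshold of 0.05.

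Few peaks of the first part escaped this level. At 1.5 times the genome-wide level or more were 238 of 238, 170 of 173 and 167 of 172 peaks of the first part (100%, 98.3% and 97.1%). In the rest of the arm these were 12.6%, 3.53% and 3.61% of the peaks, and on the long arm 10.9%, 1.10% and 3.42%. Among the places found in all 3 replicates, 98 of 102 in the first part were at 1.5 or more in each replicate (96.1%), against 8.47% of such places in the genome. The rest of the arm had 1 such place of 56 and the long arm 1 of 524. Conversely, 0, 0 and 1 peaks of the first part had a background at the floor of 1 (within 0.001), against 13, 31 and 28 peaks of the rest of the arm. As shares these were 9.09%, 36.5% and 33.7% of the peaks in the rest of the arm, and 28.9%, 40.4% and 39.97% in the whole lists.

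The level was even along the first part. In bins of 2 Mb the median relative background of the 10 bins ran from 1.86 to 2.06 in replicate 1, from 1.70 to 1.90 in replicate 2 and from 1.73 to 1.97 in replicate 3. The bin that holds TERT, at the chromosome end, was at 1.96, 1.86 and 1.86. The 12 bins from 22 Mb towards the centromere, taken whatever their number of peaks, ran from 1.00 to 1.21, from 1.00 to 1.25 and from 1.01 to 1.11. The value of 1.25 rested on 1 peak. The 55 long-arm bins with at least 3 peaks in every replicate ran from 1.04 to 1.33, from 1.00 to 1.14 and from 1.00 to 1.16. The bins of the first part and these later bins did not overlap in any replicate. Over the genome, 69 of 1043 bins with at least 3 peaks in each replicate were at 1.5 or more in all 3 (6.62%). On chromosome 5 these were 11 of 73, namely the 10 bins of the first part and the bin from 20 to 22 Mb.

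**Figure D2:**
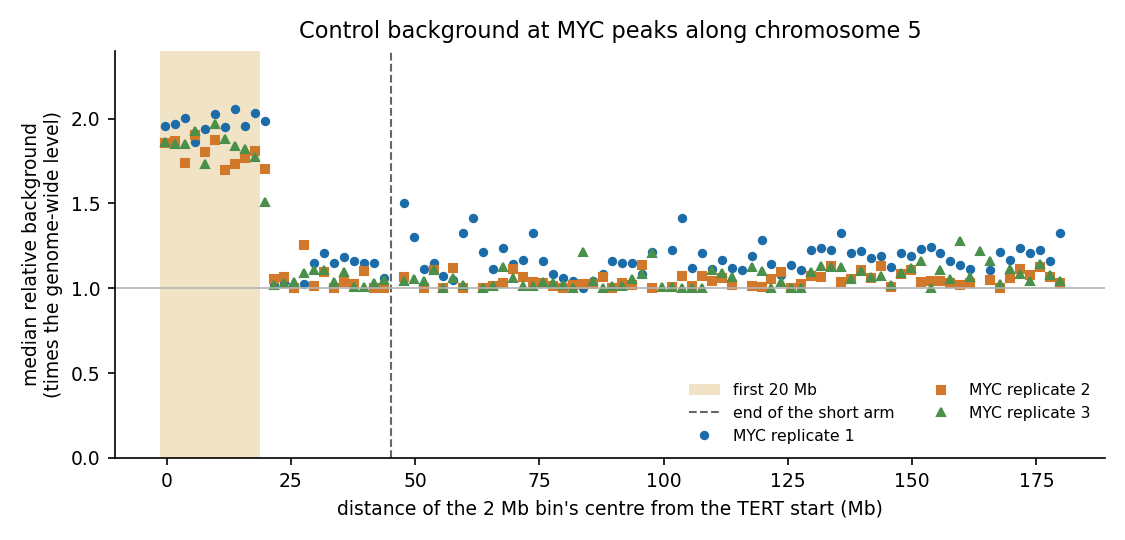
Median relative background (vertical axis, times the genome-wide level) of the MYC peaks in each 2 Mb bin of chromosome 5 that held a peak, by distance of the bin from the TERT start in Mb (horizontal axis), with 1 point per replicate. The shaded first 20 Mb sit between 1.70 and 2.06, and beyond the next bin the short arm stays at or below 1.25.

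The drop did not fall on the 20 Mb boundary but shortly after it. The split that best separated the background along the arm lay between summits at 21919727 and 22372504 in replicate 1, between 20972911 and 21459645 in replicate 2 and between 21453894 and 21459604 in replicate 3. The medians before and after it were 2.0 and 1.15, 1.83 and 1.03, and 1.86 and 1.04. These splits were found on the same values, so the ratios of 1.74, 1.77 and 1.78 between both sides are a description. The place from 21459397 to 21459883 lay at the step, and its relative background was 1.77 in replicate 1 and 1.24 and 1.2 in replicates 2 and 3. At a place from 20972643 to 20973109 all 3 replicates were still high, at 2.21, 1.70 and 1.81. A peak of replicate 3 with its summit at 20704552 lay before the step but was low, with a relative background of 1.02 on 14 fragments. Before the step 0, 3 and 6 peaks were below 1.5 in replicates 1, 2 and 3, and after it 11, 1 and 1 were at 1.5 or more. The replicates thus placed the drop between 20972911 and 22372504, in a stretch with few peaks.

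**Figure D3:**
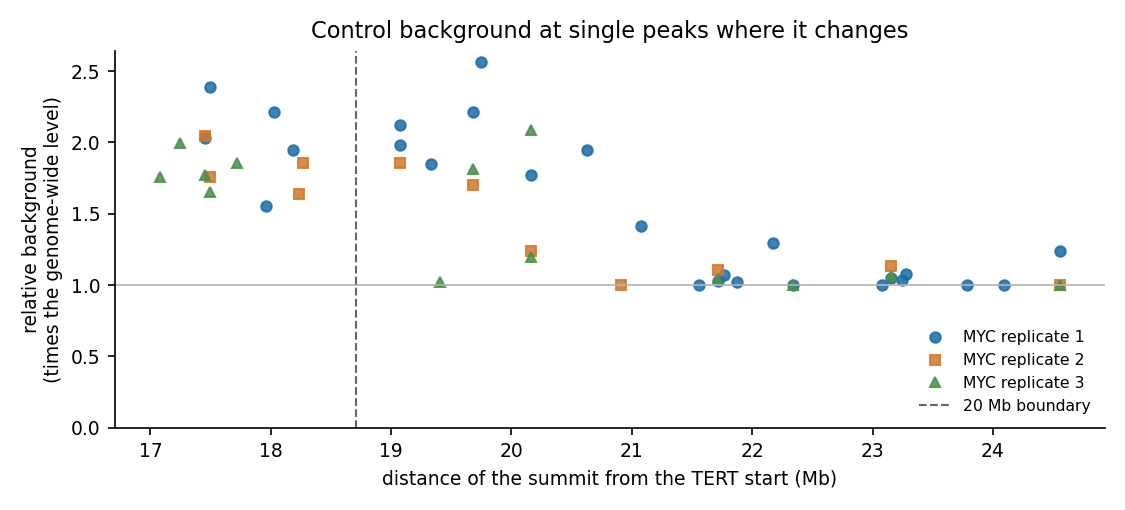
Relative background (vertical axis, times the genome-wide level) of the single peaks between 18 and 26 Mb, by distance of the summit from the TERT start in Mb (horizontal axis), with 1 point per peak and replicate and the 20 Mb boundary as a dashed line. From the boundary to the place where the replicates read 1.77, 1.24 and 1.2, values run from 1.7 to 2.56, apart from a peak of replicate 3 at 1.02. Beyond it replicate 1 still has peaks at 1.95 and 1.42, and the other peaks lie between 1.0 and 1.29.

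Other stretches of the genome had a like level. On chromosome 20 the median relative background was 2.07, 1.90 and 1.89, and the ratio of the first part to it was 0.970 ± 0.00870 (SD, n = 3). On chromosome 7 from 70 Mb it was 1.72, 1.56 and 1.57, with a ratio of 1.17 ± 0.00818 (SD, n = 3). The first part of the chromosome 5 short arm thus lay between both, nearer to chromosome 20. The number of DNA copies of these stretches, the mappability of their sequence and their part in the background were not tested.

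Fold enrichment was lower in the first part than in the rest of the arm. The median fold was 3.24, 3.39 and 3.73 in the first part, 3.95, 4.53 and 4.62 in the rest and 4.15, 4.46 and 4.86 on the long arm in replicates 1, 2 and 3. The ratio of the first part to the rest was 0.791 ± 0.0386 and to the long arm 0.770 ± 0.0106 (SD, n = 3), below 1 in 3 of 3 replicates each. The fold was also lower than on chromosome 20 (ratio 0.883 ± 0.0170) and on chromosome 7 from 70 Mb (ratio 0.861 ± 0.0312, SD, n = 3 each). The local background is the denominator of the fold, so the lower fold and the higher background are not independent measurements.

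The fragments at the summits showed the opposite order. A median peak of the first part had 53, 40 and 36 fragments, one of the rest of the arm 40, 32 and 28, and one of the long arm 42, 32 and 29. Divided by the genome-wide level these were 6.81, 6.85 and 7.57 in the first part against 5.14, 5.48 and 5.89 in the rest, a ratio of 1.29 ± 0.0375 (SD, n = 3), and the ratio to the long arm was 1.25 ± 0.0103 (SD, n = 3). Divided by the local background, the ratio to the rest was 0.745 ± 0.0413 (SD, n = 3). The direction thus depended on the denominator, and in each case it was the same in 3 of 3 replicates. A peak must exceed its local background to be called. The fewest fragments at a called peak were 28, 24 and 22 in the first part and 20, 19 and 14 in the rest of the arm. The cause of this difference was not tested.

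**Figure D4:**
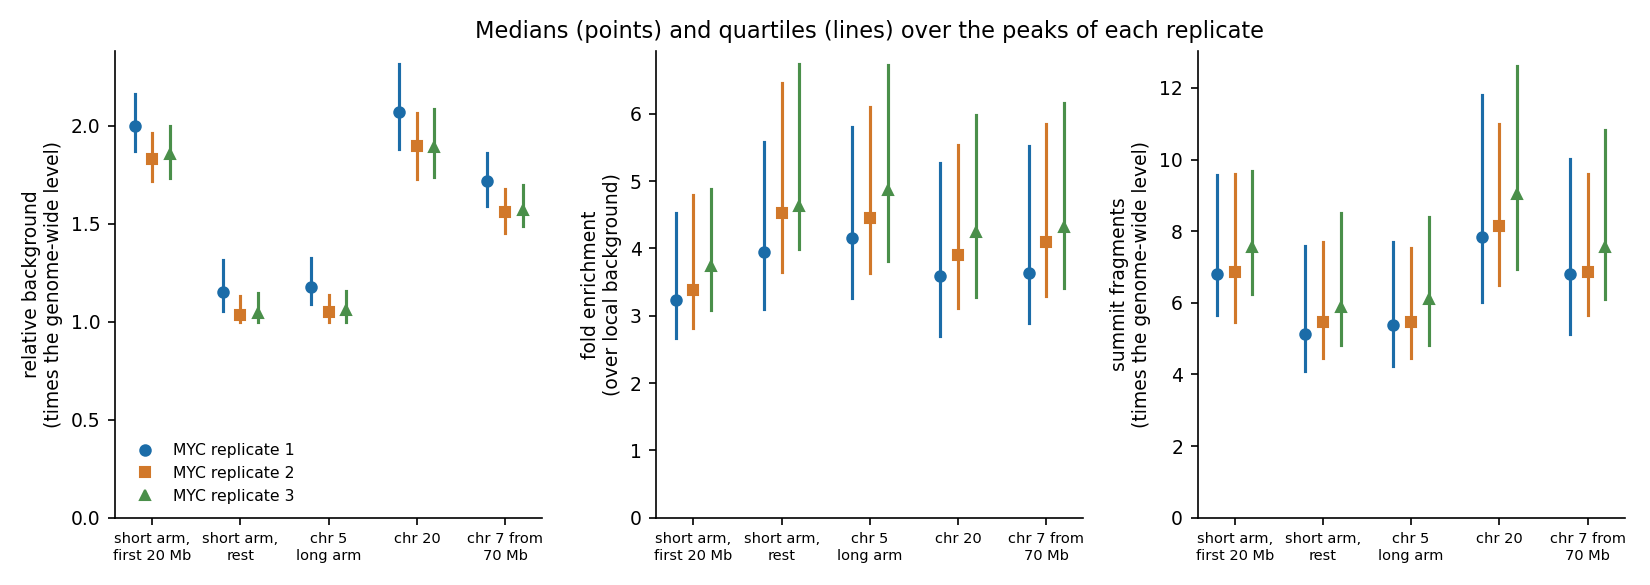
Relative background, fold enrichment and summit fragments over the genome-wide level (vertical axes, linear from 0) of the peaks in 5 parts of the genome (horizontal axes), with the median of each replicate as a point and the quartiles over its peaks as a line. The first 20 Mb of the short arm stand with chromosome 20 in background, below the rest of the arm in fold and above it in fragments.

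MYC places were dense in the first part and sparse in the rest of the arm. The lists held 238, 173 and 172 peaks in the first part and 143, 85 and 83 in the rest. Places found in at least 2 replicates, the rule the study used for its consensus, numbered 158 in the first part and 87 in the rest, or 7.90 and 3.30 per Mb, against 5.55 per Mb on the long arm. The median distance between neighbouring consensus places was 35.7 kb, 91.3 kb and 61.0 kb, respectively. The 2 Mb bin with TERT, at the chromosome end, held 43 consensus places, and the other bins of the first part held 2 to 24. The fewest, 2, fell in the bin from 18 to 20 Mb. In the rest of the arm 3 fell in the bin from 20 to 22 Mb, and 1 in each of the bins from 26 to 28 Mb and from 28 to 30 Mb. The gene content of these stretches was not measured.

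The most isolated consensus place, from 29191524 to 29192175, lay 1632 kb from its nearest neighbour. It was found in all 3 replicates with folds of 6.94, 5.05 and 5.97 and a background of 1.00, 1.25 and 1.09 times the genome-wide level. In the first part the most isolated place ran from 7868624 to 7869736, 1103 kb from its neighbour, with folds of 6.38, 8.18 and 7.61. Both were above the median fold of their own part in each replicate.

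Fewer places were shared between replicates on the short arm than elsewhere. Of its 478 places, 158 were found in all 3 replicates (33.1%), 87 in 2 and 233 in 1, whereas 45% of all places in the genome and 42.9% of those on the long arm were found in all 3. In the first part the share was 32.4% (102 of 315, 95% Clopper-Pearson interval 27.2% to 37.9%, counting error only) and in the rest 34.4% (56 of 163). Both parts were thus below the long arm, and their shares were close to each other. How the background bears on sharing was not tested. Neighbouring places are not independent and the share is 1 value over the 3 lists, so no test was made.

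The single-replicate places of the first part were spread over the lists in an uneven way. In the first part 88, 37 and 32 places were found in replicate 1, 2 and 3 alone, so that 56.1% of them were from replicate 1. In the rest of the arm these were 59, 6 and 11 (77.6% from replicate 1), and in the genome 73.9% were from replicate 1. The first part therefore held a larger share of places called only in replicate 2 or 3.

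Sharing rose with the strength of the peaks. With a −log10 p under 10, 2.44%, 33.3% and 29.4% of the peaks of the first part in replicates 1, 2 and 3 belonged to places found in all 3, against 10.3%, 51.0% and 47.2% in the whole lists. Between 10 and 20 these shares were 35.0%, 66.1% and 70.8%, against 38.2%, 82.8% and 81.6%. In the first part both bands were thus below the whole lists in each replicate, with the smallest gap in replicate 1 between 10 and 20. The rest of the arm was also below the whole lists under 10, at 6.38%, 44.0% and 35.5%. Between 10 and 20 it had 24.0%, 68.6% and 82.1%, which was below them in replicates 1 and 2 but not in replicate 3. For the first part the shares between 20 and 30 were 87.5%, 100% and 100%, against 79.4%, 98.4% and 98.4% in the whole lists. These rested on 24, 16 and 12 peaks of the first part. The rest of the arm had 64.3%, 88.9% and 100% on 14, 9 and 10 peaks, below the whole lists in replicates 1 and 2. At 30 or more, 52 of 52, 29 of 29 and 27 of 27 peaks of the first part in replicates 1, 2 and 3 belonged to places found in all 3. In the whole lists 98.2%, 99.9% and 100% of such strong peaks did.

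The strongest place on the arm was in its rest, from 43120638 to 43122100, with folds of 32.6, 27.9 and 32.7 on 308, 229 and 210 fragments. It ranked 24 of the 12499 places found in all 3 replicates. The second, from 10249572 to 10251438 in the first part, had folds of 25.2, 28.5 and 26.4. It held more fragments than the strongest place, 476, 343 and 287, over a relative background of 2.30, 1.90 and 2.09 against 1.09, 1.24 and 1.15. Replicate 2 gave these 2 places in the reverse order of fold, so their order was not resolved.

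3 strong places lay close to each other. The places ranked 3, 4 and 6 on the arm ran from 6712271 to 6713631 with folds of 21.5, 18.4 and 23.1, from 6765554 to 6767270 with folds of 23.8, 18.2 and 17.1, and from 6632634 to 6634288 with folds of 19.2, 14.6 and 15.9. In the rest of the arm the fifth strongest, from 33440182 to 33442277, had folds of 20.5, 15.8 and 17.9 at a background of 1.06, 1.04 and 1.00. Of the 10 strongest places, 6 were in the first part and 4 in the rest. All 6 in the first part had a background of 1.65 or more in each replicate, and the 4 in the rest reached at most 1.39. The order within the 10 was mostly not resolved, since 2 of the 9 neighbouring pairs had the same order in all 3 replicates, although 33 of all 45 pairs did.

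**Figure D5:**
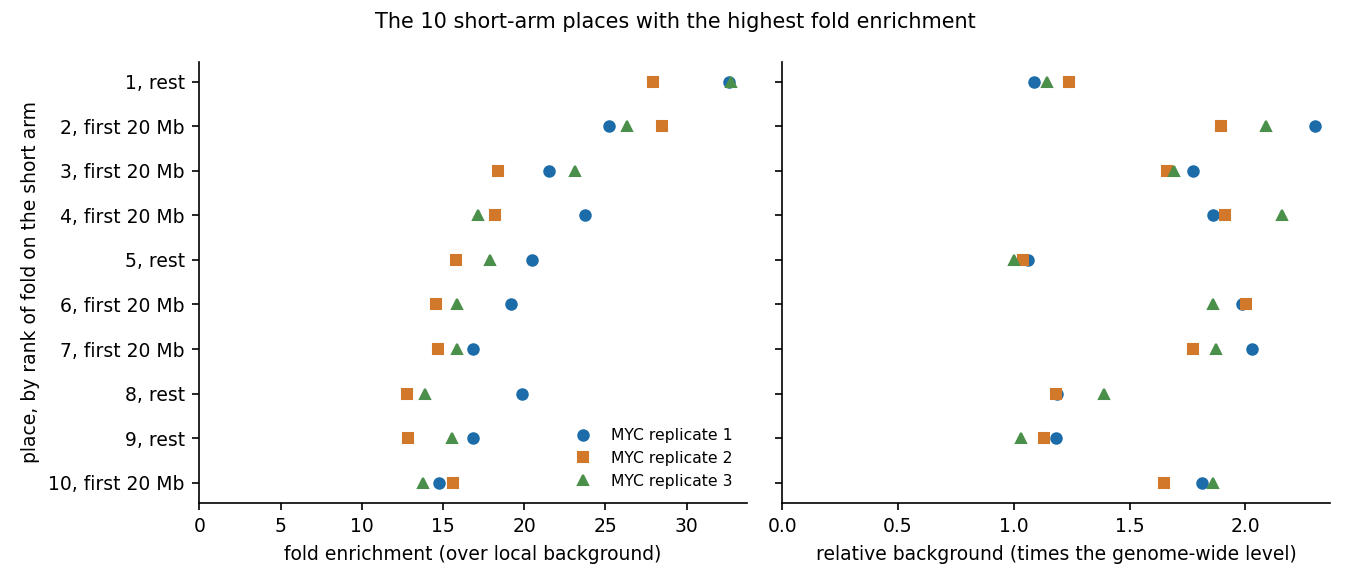
Fold enrichment (left) and relative background (right) of the 10 short-arm places with the highest geometric mean fold, ranked from top to bottom, with 1 point per replicate. The fold falls with rank by construction, whereas the background separates the 6 places of the first 20 Mb from the 4 places of the rest.

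A geometric mean fold of 10 or more was reached by 10 of the 102 places of the first part found in all 3 replicates (9.80%) and by 10 of 56 in the rest (17.9%), with 11.4% in the genome. The first part was thus close to the genome-wide share. With 10 places in each part, the shares carry a wide counting error.

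Among the short-arm places found in all 3 replicates, the highest background lay between TERT and the chromosome end, from 840244 to 840887. Its relative background was 3.98, 3.72 and 4.87, and the fold was 2.72, 3.21 and 2.11. By fold this place ranked 157 of the 158 such places. Its neighbour from 838663 to 839105 had the second highest background, at 2.65, 2.32 and 2.78, with a fold of 5.54, 6.53 and 5.90. Over all short-arm peaks the highest relative background was 3.98, 4.65 and 4.87, so in replicate 2 a peak elsewhere was higher than this place. The control signal at this pair was above the even level of the first part, and whether the sequence there maps uniquely was not tested.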

How the data were processed

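The deposited files were peak lists of the 3 MYC libraries. Per the labels and the study's methods, the authors aligned reads to hg19 with Bowtie2 and called peaks per library with MACS2, with 0.05 as the q-value threshold. Versions, the control library and the treatment of duplicates were not given in the sources used here. Deposited lists hold a fold enrichment, a ratio with 1 added to both terms by MACS2, a −log10 p-value, a −log10 q-value and a score that is 10 times the latter without its decimals. The deposited starts count from 0, and positions here count from 1.

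Fragments and local background at each summit were recovered as the pair that gives the deposited fold and Poisson p-value (whole within 0.001 in −log10 p at 100% of peaks, and tested on simulated data). MACS2 compares the genome-wide level with control windows as wide as a fragment, 1000 bp and 10000 bp, and keeps the highest, so lower control signal is not seen. The genome-wide level was read as the lowest background in a list. For the same number of fragments, a higher local background gives a lower fold and a larger p-value.

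Medians were compared as ratios within replicates with an exact two-sided sign-flip permutation test on log2 ratios. The split of the background along the arm was placed where 2 levels left the smallest squared deviation of log2 values. Places named are the 10 with the highest geometric mean fold and the 5 with the highest background (both of those in all 3 replicates), those within 100 kb of TERT, those at the boundaries and the most isolated. The place at the step and the peaks just before it were named after their values were seen. Members and lists were chosen with earlier results of these data known. The genome and annotation used here are hg38, so no gene but TERT was placed, and the planned counts of genes and of E-boxes at summits were not made. Python 3.11.15, numpy 2.4.6, pandas 2.3.3, scipy 1.17.1 and matplotlib 3.10.9 were used.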

Additional observations from a re-analysis of the deposited data

How the results depend on the processing

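Of 122 recomputed values of 12 results, 98 stayed within 1 SD between replicates, or within the interval or 1.5 times for shares and counts. Beyond these limits 23 moved, up or down, without reversing, and 1 reversed. With the first part ending at 15 Mb, the ratio of relative background of the rest of the arm to the long arm turned to 1.05, because peaks from 15 to 20 Mb then belong to the rest. That boundary also gave 1.66 for background, 0.857 for fold, 1.21 for fragments over the genome-wide level and 0.828 over the local background (first part to rest), and 1.26 for fragments over the genome-wide level against the long arm, which was 1.24 with 25 Mb. A boundary of 22 Mb, chosen after seeing the data, moved no ratio.

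Background, first part to rest, was 1.74 with places in at least 2 replicates, 1.73 with places in all 3, 1.71 with means of log2 values and 1.79 with backgrounds set by the 10000 bp window or at the genome-wide level. Background, rest to long arm, was 0.990, 0.995, 0.997 and 0.970 under the same settings, and first part to long arm 1.70 with means. Against the long arm, fold was 0.794, 0.821 and 0.80 and fragments over the genome-wide level 1.31, 1.33 and 1.30 under the first 3 of these settings. The share of first-part places in all 3 replicates was 25.3% with a reciprocal overlap of 50% and 25.9% with summits at most 200 bp apart. The causes of these shifts were not tested. q-value thresholds of 0.01 and 0.001 and leaving out each replicate moved none of these ratios by more than 1 SD.

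No paired analysis was possible because no IgG values were used, so same-numbered MYC and IgG samples were never set against each other. Ratios between parts were taken within each MYC replicate. The fewest fragments at a called short-arm peak were 20, 19 and 14 in replicates 1, 2 and 3, and how depth bears on weak peaks was not tested.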
